A study of Mus musculus with 4 samples.

Results

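Of the 20540 regions formed by merging the peaks of 4 ATAC-seq libraries from mouse macrophages, 1235 (6.01%) had a peak in 3 libraries and none in the library from Slc6a8-/y macrophages treated with IL-4 (KO IL-4). These regions were open in wild-type untreated (WT untreated), wild-type IL-4 (WT IL-4) and Slc6a8-/y untreated (KO untreated) macrophages. They were chosen from peak presence alone, peaks being joined where they overlapped by 1 bp or more. Each was ranked by the lowest percentile that its peak score reached within the 3 lists. Their absence from KO IL-4 is therefore how they were picked and not a finding, and the same holds for their rank.

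The macrophages were grown from C57BL/6 bone marrow for 5 days with 10% M-CSF and were left untreated or received IL-4 at 10 ng/mL for 6 h. The knockout cells carry Slc6a8-/y, the hemizygous loss of an X-linked gene. ATAC-seq marks open chromatin through insertion by the Tn5 transposase, here in 50000 cells per library. Each group held 1 library, so there is no replicate error, no test was made, and each difference is between libraries. Intervals below are exact Clopper-Pearson 95% intervals that cover counting error only. The sequencing depth is unknown, and a region open in fewer cells cannot be told apart from a region less open in each cell.

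Slc6a8 encodes the creatine transporter, through which cells take up creatine, a buffer of ATP. IL-4 binds a receptor that activates the transcription factor STAT6 through JAK kinases, and STAT6 switches on genes of alternative activation such as Arg1, the arginase gene. Open chromatin at a gene start marks a promoter in use or ready for use, while open sites elsewhere are often enhancers, where lineage factors such as PU.1 bind beside signal-dependent factors. A promoter with many CpG pairs, as in most genes that all cells need, is usually open in every cell type.

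Protein-coding gene starts lay inside 427 of the 1201 regions on chromosomes of the RefSeq promoter table. Each promoter window spans 250 bases before the start and 50 after it (RefSeq, assembly GRCm38.p6, with mm10 coordinates). The 6 windows here are shown because they are the promoters on which the results below turn. Cdk11b, Hdac6 and Cox8a stood among the 5 highest-ranked regions, Nfkbia and Il18 belong to the NF-kB list, and Lyz2 is a macrophage identity gene. Capitals mark every match, on either strand, to any of 18 short motifs. Each sequence is given 5′ to 3′ on the gene's strand.
Cdk11b, chr4:155624604-155624903, plus strand: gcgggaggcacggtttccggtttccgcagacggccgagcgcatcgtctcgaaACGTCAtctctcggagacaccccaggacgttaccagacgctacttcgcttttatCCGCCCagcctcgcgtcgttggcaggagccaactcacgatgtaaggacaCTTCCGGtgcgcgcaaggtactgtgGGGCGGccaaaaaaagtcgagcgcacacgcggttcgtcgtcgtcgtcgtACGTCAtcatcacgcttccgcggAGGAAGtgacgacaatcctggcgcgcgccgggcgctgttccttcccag
Hdac6, chrX:7947840-7948139, minus strand: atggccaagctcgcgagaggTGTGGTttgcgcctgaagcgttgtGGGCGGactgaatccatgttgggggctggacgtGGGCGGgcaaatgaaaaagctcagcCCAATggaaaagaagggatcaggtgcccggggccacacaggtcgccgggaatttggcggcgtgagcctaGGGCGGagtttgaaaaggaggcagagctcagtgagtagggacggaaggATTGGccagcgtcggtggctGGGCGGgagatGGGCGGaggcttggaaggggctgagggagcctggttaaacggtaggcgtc
Cox8a, chr19:7217567-7217866, minus strand: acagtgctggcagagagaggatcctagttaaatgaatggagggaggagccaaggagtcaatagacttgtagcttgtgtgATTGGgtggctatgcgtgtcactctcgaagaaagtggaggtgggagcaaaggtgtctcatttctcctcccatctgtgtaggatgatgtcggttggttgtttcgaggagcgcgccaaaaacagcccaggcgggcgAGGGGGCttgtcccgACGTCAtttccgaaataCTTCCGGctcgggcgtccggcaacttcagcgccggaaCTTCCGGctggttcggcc
Nfkbia, chr12:55492598-55492897, minus strand: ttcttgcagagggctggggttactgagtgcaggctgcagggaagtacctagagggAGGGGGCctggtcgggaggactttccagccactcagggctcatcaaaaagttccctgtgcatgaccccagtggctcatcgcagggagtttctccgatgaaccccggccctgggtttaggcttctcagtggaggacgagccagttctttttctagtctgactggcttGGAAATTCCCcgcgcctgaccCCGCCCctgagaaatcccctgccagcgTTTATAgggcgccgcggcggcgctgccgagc
Il18, chr9:50554450-50554749, plus strand: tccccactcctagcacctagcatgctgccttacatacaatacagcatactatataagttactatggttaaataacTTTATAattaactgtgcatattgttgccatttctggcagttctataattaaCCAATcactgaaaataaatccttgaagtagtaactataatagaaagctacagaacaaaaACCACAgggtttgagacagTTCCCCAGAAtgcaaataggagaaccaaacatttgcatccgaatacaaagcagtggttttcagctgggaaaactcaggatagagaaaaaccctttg
Lyz2, chr10:117282223-117282522, minus strand: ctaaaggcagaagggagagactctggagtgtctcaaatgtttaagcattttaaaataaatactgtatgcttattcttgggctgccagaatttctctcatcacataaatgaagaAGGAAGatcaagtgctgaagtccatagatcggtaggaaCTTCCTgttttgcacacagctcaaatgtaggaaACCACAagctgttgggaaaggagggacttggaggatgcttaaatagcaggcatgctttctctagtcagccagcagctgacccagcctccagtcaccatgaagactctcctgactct
The windows of Cdk11b, Hdac6, Cox8a, Nfkbia and Lyz2 lay wholly inside the region, and that of Il18 by 68.7%. GC content was 62.3% in Cdk11b, 62.0% in Hdac6, 56.0% in Cox8a, 61.0% in Nfkbia, 36.7% in Il18 and 44.3% in Lyz2. The ratio of observed to expected CpG pairs, where 1 means no depletion, was 1.44 in Cdk11b, 0.824 in Hdac6, 0.842 in Cox8a and 0.539 in Nfkbia. It was 0.101 in Il18 and 0.068 in Lyz2. Il18 and Lyz2, genes of innate immune cells, thus had CpG-poor promoters, unlike Cdk11b, Hdac6 and Cox8a. Lyz2 held matches to PU.1 and RUNX, Nfkbia to NF-kB, the GC box, CTCF and TATA, and Il18 to STAT6, RUNX, CCAAT and TATA.

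The highest-ranked region lay at the edge of Chchd2 (chromosome 5, 129886982 to 129887772, mm10), the gene of a mitochondrial protein. A region counted as being at a gene edge where it lay within 1 kb of the first or last base of a protein-coding gene. The score is the authors' value for each peak, comparable only within a list. It was 253 in WT untreated, 155 in WT IL-4 and 219 in KO untreated, at percentiles 88.1, 83.4 and 87.5 of those lists. The nearest KO IL-4 peak lay 7672 bp away.

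Cdk11b, which encodes a kinase of transcription and splicing, came next (chromosome 4, 155624343 to 155625107). Its scores were 236 in WT untreated, 152 in WT IL-4 and 202 in KO untreated. At Hdac6, the gene of a cytoplasmic tubulin deacetylase (chromosome X, 7947680 to 7948365), they were 235, 144 and 170.1 in the same order. This region held starts on both strands, of Hdac6 and of Gm39488. At Cox8a, which encodes a subunit of cytochrome c oxidase (chromosome 19, 7217224 to 7218020), they were 175, 151 and 194. All 4 regions reached a percentile of 76.4 or more in each of the 3 lists, and no KO IL-4 peak was closer than 7672 bp.

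Most of the 25 highest-ranked regions lay at gene edges. These held 19 of them, 4 lay inside a gene span and 2 outside, and 18 contained a protein-coding start. They included Hnrnpf (an RNA-binding splicing protein; the region is also at the edge of 4933440N22Rik), Eif4h (translation initiation), Ltv1 (assembly of the small ribosomal subunit), Rpl31 (a ribosomal protein) and Herpud1 (the endoplasmic reticulum stress response). Atg2b (autophagy) and Gskip shared a region, and their starts lay on opposite strands. The 2 regions outside any gene lay 1217 bp from Gm4832 and 7886 bp from Sdcbp, which encodes the scaffold protein syntenin.

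Scores of these 25 ran from 135 to 326 in WT untreated, with a median of 196, and from 107 to 155 in WT IL-4, with a median of 129.8. In KO untreated they ran from 129.5 to 219, with a median of 162. WT IL-4 gave the lowest percentile for 13 of the 25 and the highest for 4, at Zc3h8, C2cd2, Ehd1 (endocytic recycling) and the region shared by Mpv17l and Pdxdc1. The widest gap was at Ccar1, the gene of a transcriptional coactivator, with percentile 93.4 in WT untreated and 71.6 in WT IL-4. A KO IL-4 peak lay within 1000 bp of 3 of the 25, at 268 bp from the Hnrnpf region, 281 bp from Herpud1 and 779 bp from Ehd1. At those 3 the neighbouring sequence was open in KO IL-4 although the region itself had no peak.

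**Figure D1:**
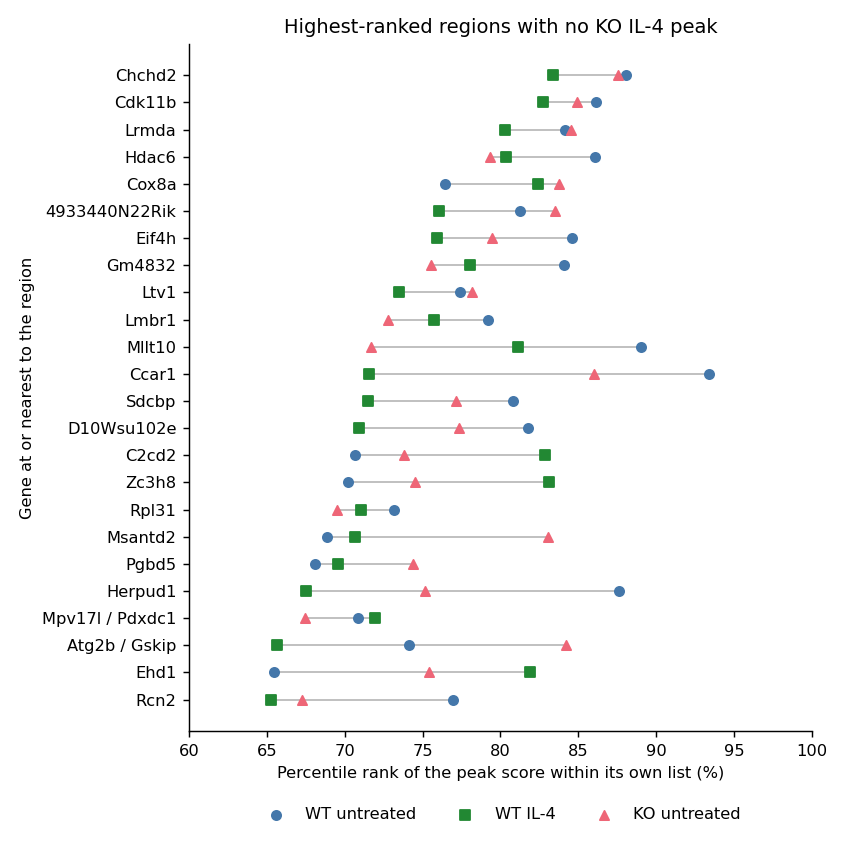
Percentile rank of the peak score within its own list (x axis, %) for the 25 highest-ranked regions without a KO IL-4 peak, except 1 that is not reported here, each named for the gene at or nearest to it. Symbols are the 3 libraries with a peak, and the line joins them. The lowest of the 3 values fell from 83.4 at Chchd2 to 65.2 at Rcn2.

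Beyond these, most of the 1235 regions had modest peaks. The median score was 103 in WT untreated (range 50.1 to 347), 68.6 in WT IL-4 (50.1 to 157) and 81.9 in KO untreated (50.05 to 282). No score in any list was below 50, so the WT IL-4 peaks in particular sat near the bottom of the scale. A score of 100 or more was reached by 658 regions (53.3%) in WT untreated and by 380 (30.8%) in KO untreated, but by 126 (10.2%) in WT IL-4. All 3 scores were that high in 59 regions (4.78%). WT IL-4 gave the lowest percentile for 665 regions, KO untreated for 365 and WT untreated for 205. In 227 regions (18.4%) the percentile was highest in WT IL-4. Because lists differ in length, such percentiles do not show a change between libraries.

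The choice of members turned on whether a peak passed the authors' limit, so the values at that limit are given. The last 5 by rank lay near Tal2, Zranb3, Ago2, Fbxl13 and Map3k1. The first 4 of these scored 50.1 in WT IL-4, and the Map3k1 region scored 50.05 in KO untreated. Tal2 and Zranb3 had 171 and 123 in WT untreated. Just outside were regions of all 4 libraries whose KO IL-4 peak had the lowest scores, at Mctp1, Irf2bp2, L3mbtl3, Capn2 and Trio. Their WT untreated scores were 97.6, 79.4, 119.98, 74.7 and 87.9, and their WT IL-4 scores 55.2, 96.7, 53.7, 60.2 and 61.2. These 2 sets were picked by scores in different lists, so their values are given as a description only.

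**Figure D2:**
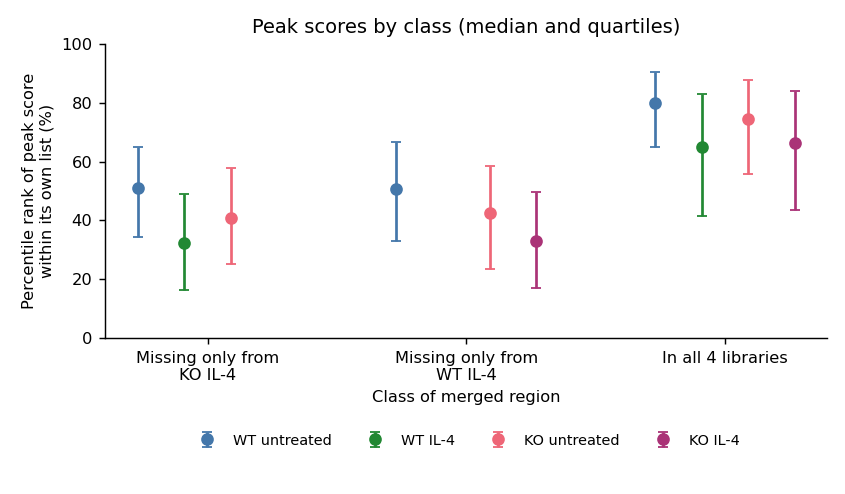
Percentile rank of peak scores within each list (y axis, %) for regions missing only from KO IL-4, missing only from WT IL-4 or found in all 4 libraries. Points are medians and bars the quartiles. In WT untreated the medians were 51.0, 50.8 and 79.8 for these classes.

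Regions lacking a peak in KO IL-4 alone numbered fewer than regions lacking one in WT IL-4 alone. Of the 7907 regions with a peak in the other 3 libraries, 1235 had none in KO IL-4, that is 15.6% (14.8 to 16.4). This share is the background of the choice itself. The mirrored share for WT IL-4 was 18.2% (17.4 to 19.1), or 1487 of 8159. It was 5.94% (5.40 to 6.51) for KO untreated and 1.33% (1.07 to 1.63) for WT untreated. KO IL-4 had 10443 peaks, WT IL-4 9930, KO untreated 13714 and WT untreated 17339, so the order of the 4 shares was the reverse of the order of list lengths. At equal list lengths the shares were 10.6% (9.83 to 11.3) for KO IL-4 and 10.9% (10.2 to 11.7) for WT IL-4, and their intervals overlapped.

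The missing share fell with the score of the same region in WT IL-4. It was 37.2% (34.5 to 39.9) in quartile 1 of the WT IL-4 list, the lowest scores, then 24.7% (22.7 to 26.7), 11.6% (10.4 to 13.03) and 1.14% (0.757 to 1.64) in quartile 4. The mirrored share by KO IL-4 score went from 43.3% (40.6 to 46.0) through 29.7% and 13.7% to 1.39% (0.973 to 1.91). Only 28 regions of quartile 4 in WT IL-4 lacked a KO IL-4 peak, and 36 regions of quartile 4 in KO IL-4 lacked a WT IL-4 peak. Where both untreated libraries also had a peak, the strongest peaks of either IL-4 library were thus nearly always found in the other.

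**Figure D3:**
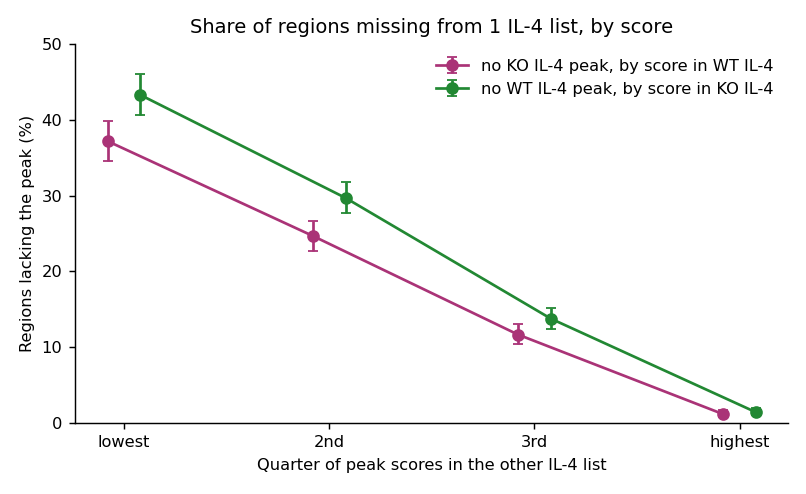
Share of regions of the other 3 libraries that lack a peak in KO IL-4 or in WT IL-4 (y axis, %), by score quartile in the other IL-4 list (x axis). Bars are exact 95% intervals for counting error. The KO IL-4 share went from 37.2% at the lowest scores to 1.14% at the highest.

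KO IL-4 peaks seldom lay close to these regions. A KO IL-4 peak that overlapped a region by 1 bp or more would have removed it, so small shifts could not be seen. A KO IL-4 peak lay within 500 bp of 27 of the 1235 regions (2.19%) and within 10000 bp of 247 (20%). The median distance to the nearest KO IL-4 peak was 33031 bp. For the regions missing only from WT IL-4, the median distance to a WT IL-4 peak was 33551 bp, and 29 (1.95%) had such a peak within 500 bp.

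Chromosomes carried these regions in like proportion. Over the autosomes and X the missing share ran from 12.98% (9.16 to 17.7) on chromosome 18 to 18.8% (14.2 to 24.2) on chromosome 19. On X, which carries Slc6a8, it was 17.2% (11.2 to 24.6), or 23 of 134 regions.

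Position was not used to choose the regions. Gene edges held 536 of the 1235, or 43.4% (40.6 to 46.2), gene interiors 370, or 30.0% (27.4 to 32.6), and 329, or 26.6% (24.2 to 29.2), lay outside genes. The edge share was 45.3% (42.8 to 47.9) in regions missing only from WT IL-4, 33.0% (28.5 to 37.7) in regions missing only from KO untreated, and 63.4% (62.2 to 64.6) in regions of all 4 libraries. The intervals of the first 2 classes overlapped, while the all-4 class stood above them.

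Edge share rose with score in every class. In quartile 1 of the WT untreated scores it was 36.9% (30.0 to 44.2) for regions missing only from KO IL-4 and 38.3% (31.2 to 45.7) for regions of all 4 libraries. In quartile 2 these were 39.4% (34.6 to 44.3) and 43.0% (38.8 to 47.1), and their intervals overlapped in both quartiles. In quartile 3 the values were 45.1% (40.7 to 49.5) and 52.8% (50.6 to 55.1), and in quartile 4 59.2% (50.1 to 67.9) and 72.6% (71.2 to 74.0). Quartile 4 does not match the classes in score, since scores reached 347 in the regions missing only from KO IL-4 and 3100 in those of all 4 libraries. The regions missing only from WT IL-4 had 49.3% (45.2 to 53.3) and 63.2% (55.1 to 70.8) in quartiles 3 and 4, with intervals that overlapped those of the KO IL-4 class.

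**Figure D4:**
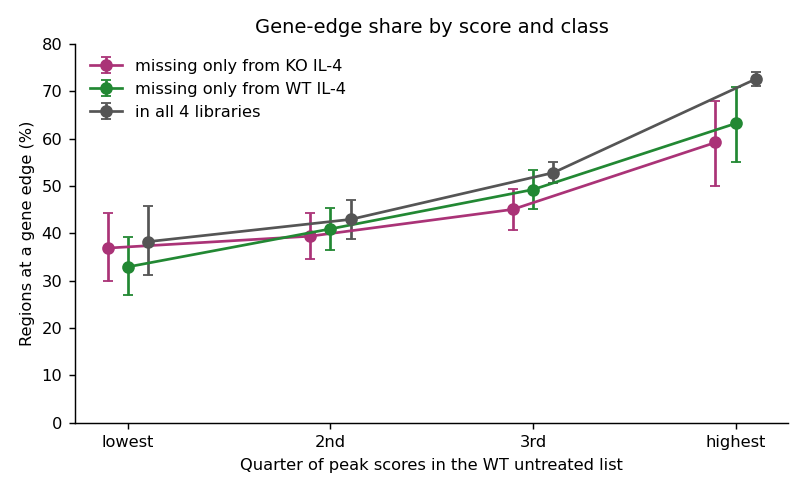
Share of regions at a gene edge (y axis, %) by score quartile in the WT untreated list (x axis) for 3 classes of region, with exact 95% intervals. In quartile 4 it was 59.2% for regions missing only from KO IL-4 and 72.6% for regions of all 4 libraries.

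Regions with starts on both strands made up a smaller share here than in regions of all 4 libraries, without regard to score. Whether such starts point away from each other was not checked. Among the 464 regions with any gene start, 13.6% (10.6 to 17.0) had starts on both strands. The share was 13.04% (10.4 to 16.1) for regions missing only from WT IL-4 and 21.0% (19.7 to 22.3) for those of all 4. Over windows of protein-coding genes, by WT untreated score, the share in quartiles 1 to 4 was 12.3%, 16.3%, 15.1% and 11.5% here. In all 4 libraries it was 19.2%, 13.04%, 18.6% and 23.6%. The share here was higher in quartile 2 and lower in the others, and the intervals overlapped in each.

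The promoter windows were close in composition to those of regions open in all libraries. Over the 427 windows, 1 per region, the median GC content was 61.7% (quartiles 56.0 and 67.3). It was 60.7% for regions missing only from WT IL-4, 62.3% for all 4 libraries and 56.3% over all 17491 protein-coding promoters of the table. The median ratio of observed to expected CpG was 0.823, 0.808, 0.818 and 0.576 in that order. Most of these promoters were thus CpG-rich, unlike those of Il18 and Lyz2.

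Of the 18 motifs, the CCAAT box of NFY (letters CCAAT, either strand) differed most in share from the regions of all 4 libraries. It was found in 160 of the 427 windows, 37.5% (32.9 to 42.3), against 51.7% in windows of all 4 libraries, 39.9% for regions missing only from WT IL-4 and 39.0% of all promoters. Its share rose with score: in quartiles 1 to 4 of the WT untreated scores it was 17.5% (8.75 to 29.9), 36.6% (28.1 to 45.7), 39.2% (32.2 to 46.7) and 52.5% (39.3 to 65.4). In regions of all 4 libraries it was 34.6% (22.0 to 49.1), 41.5% (34.8 to 48.6), 44.4% (41.1 to 47.7) and 55.5% (53.5 to 57.4). The share was lower in regions missing only from KO IL-4 in each of the 4 quartiles, and the separate intervals overlapped in each. The difference itself was not tested.

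The GC box of Sp1 and KLF factors (GGGCGG) was in 68.9% (64.2 to 73.2) of the windows, against 74.3% in all 4 libraries and 46.3% of all promoters. The ETS motif of promoters (CCGGAAG) was in 23.0% (19.0 to 27.2), against 23.1% and 11.9%, and the TATA box (TATAAA) in 7.26% (4.99 to 10.1), against 4.31% and 13.3%. The CRE motif of ATF and CREB (TGACGT) was in 12.9% (9.85 to 16.4), against 15.6% in all 4 libraries and 8.76% of all promoters, and the EGR motif (GGGCGTG) in 18.7% (15.1 to 22.8), against 21.9% and 11.1%. Both were thus above all promoters, as in the regions of all 4 libraries. The STAT6 motif was in 5.39% (3.44 to 7.97) against 6.37% of all promoters, AP-1 (TGANTCA) in 3.04% (1.63 to 5.15) against 7.08%, and PU.1 (AGGAAG) in 30.4% (26.1 to 35.1) against 34.4%. The NF-kB motif was in 5.85% (3.82 to 8.52) against 4.80% of all promoters. In regions of all 4 libraries the shares were 5.21% for STAT6, 4.36% for AP-1, 32.7% for PU.1 and 5.51% for NF-kB. In regions missing only from WT IL-4 they were 5.44%, 3.45%, 30.9% and 4.90% in the same order. The PU.1 and ETS letters share GGAAG but cannot match the same place, whereas a STAT6 match can overlap a PU.1 match. A match describes the letters of the window and is not a bound site, and the distal regions were not searched.

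**Figure D5:**
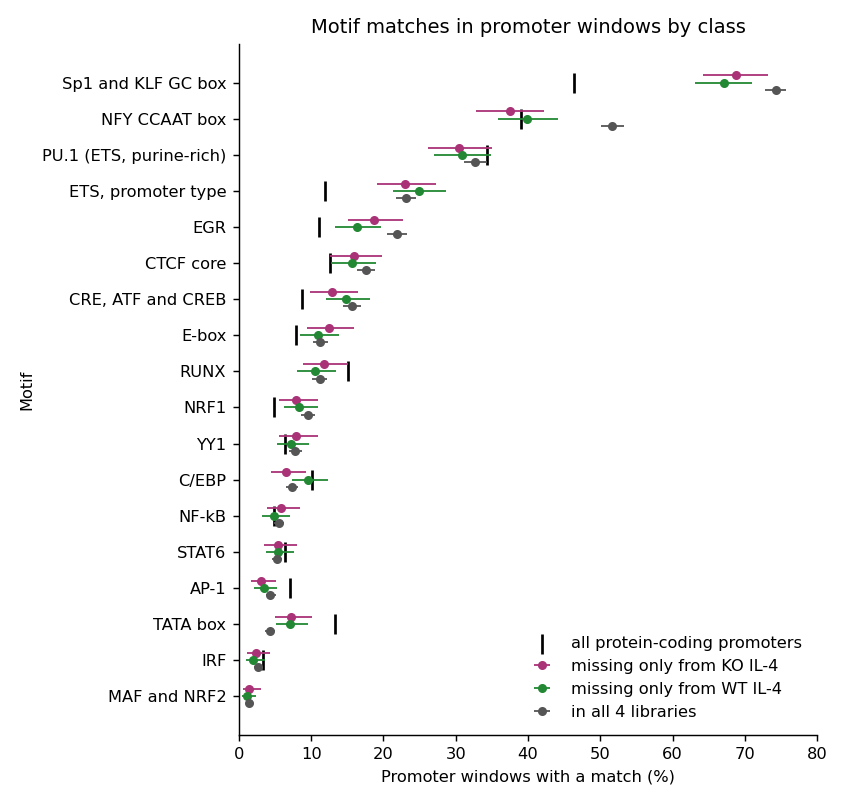
Share of promoter windows with a match to each of 18 motifs (x axis, %) in regions missing only from KO IL-4, missing only from WT IL-4 or found in all 4 libraries, with exact 95% intervals, and over all protein-coding promoters. The CCAAT box was in 37.5% of windows missing only from KO IL-4 and in 51.7% of those of all 4.

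Genes with one of these regions at an edge numbered 637, or 2.91% of 21883 protein-coding genes. Of the 5638 genes with an edge region in the other 3 libraries they made up 11.3% (10.5 to 12.2). No edge region of any kind was found in KO IL-4 at 587 of the 637 (92.2%), while 50 kept another edge region there. At 544 of the 637 the region was the only edge region of any library. For those genes the lack of a KO IL-4 edge region follows from how the regions were picked and is not a finding. A locus is the gene span with 10 kb added at each side, and 1438 genes (6.57%) had a region at the locus. Over 29 gene lists, 30 of 676 genes had a region at the edge and 57 at the locus. Lists are described below by these counts, without a test.

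Among genes of the IL-4 response and alternative activation, 0 of 36 had such a region at the edge and 2 at the locus (5.56%). Over all genes the shares were 2.91% at the edge and 6.57% at the locus. Of the 36 genes, 4 had an edge region in the other 3 libraries, so the edge count says little. At Arg1 (chromosome 10, span 24915207 to 24927470), which encodes the arginase of alternative activation, the region lay 2588 bp beyond the span, at 24930058 to 24930631. It scored 64.9 in WT untreated, 121 in WT IL-4 and 59.8 in KO untreated, at percentiles 20.4, 72.0 and 16.6. The nearest KO IL-4 peak was 59745 bp away, and KO IL-4 had no locus peak at Arg1. The Arg1 locus held 2 regions. Both untreated libraries had 2 of them, WT IL-4 had 1 and KO IL-4 had 0, so 1 region was absent from both IL-4 libraries. The region 2588 bp beyond the span was not among those missing only from KO IL-4 at equal list lengths or with scores of 100 or more required. WT IL-4 held the only peak of this region above the middle of its list. The list's other region missing only from KO IL-4 was near Cish, a feedback inhibitor of cytokine signalling, but it lay at the edge of its neighbour Mapkapk3. Mrc1, Il4ra, Stat6, Irf1 and Slc6a8 had none. Slc6a8 had no locus region in any library. Mrc1 and Il4ra had locus regions in the untreated libraries but not in either IL-4 library, so they could not hold such a region. Stat6 and Irf1 had 3 and 2 locus regions in KO IL-4.

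In the list of IL-4 receptor, JAK and STAT6 signalling 1 of 22 genes had a region at the edge and 2 at the locus. These were 4.55% and 9.09%, beside 2.91% and 6.57% over all genes. Of the 22 genes, 6 had an edge region in the other 3 libraries. Pik3r1, which encodes the p85 regulatory subunit of PI 3-kinase, had an edge region that scored 246 in WT untreated, 82.6 in WT IL-4 and 196 in KO untreated. Ptpn6, the gene of the phosphatase SHP-1, had an internal region (72.3, 61.05 and 110.7 in the same order). At Pik3r1 both untreated peaks were high in their lists (percentiles 87.3 and 84.1) and the WT IL-4 peak was at percentile 47.4.

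NF-kB and inflammatory genes had 5 of 36 with an edge region (13.9%, beside 2.91% over all genes) and 6 at the locus. Of the 12 list genes with an edge region in the other 3 libraries, 5 had one that was missing from KO IL-4, beside 11.3% over all such genes. These were Il18, a cytokine of the IL-1 family, Nfkbie and Nfkbia, inhibitors of NF-kB, Chuk, a kinase that triggers their decay, and Rela, the p65 subunit. Nfkbia and Rela were named after their values were seen. Regions missing only from WT IL-4 were at the edge of 0 of the 36, beside 3.56% over all genes. With scores of 100 or more required in every list this contrast turned round, to 0 genes for KO IL-4 and 2 for WT IL-4, and at equal list lengths it was 3 and 0.

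The peaks at these NF-kB genes were low in WT IL-4. Il18, whose region also held the start of Bco2 on the other strand, scored 74.1 in WT untreated, 61.3 in WT IL-4 and 93.2 in KO untreated. Nfkbie scored 151, 58.2 and 72.2 in the same order, and Chuk 103, 57.3 and 71.6. Nfkbia had 115, 51.4 and 72.05, and Rela 51.2, 58.9 and 50.3. In WT IL-4 all 5 lay at or under percentile 22.0 of the list. Nfkbie had another edge region in KO IL-4. Bcl3, an atypical member of the inhibitor family, had 2 regions at its locus, 1 inside the gene (86.0, 60.3 and 107) and 1 at 1051 bp from it (89.9, 91.1 and 63.4).

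Interferon response genes had 2 of 37 at the edge and 4 at the locus (5.41% and 10.8%, beside 2.91% and 6.57% over all genes). At equal list lengths both counts were 0, and with scores of 100 or more required they were 1 and 3. Regions missing only from WT IL-4 were at the edge of 4 genes of this list and at the locus of 7. Of the 37 genes, 11 had an edge region in the other 3 libraries. Irf9, the DNA-binding subunit of the factor that type I interferon activates, scored 81.7 in WT untreated, 90.2 in WT IL-4 and 93.3 in KO untreated. Usp18, the protease that removes ISG15, had 2 regions, an edge region (58.9, 74.2 and 89.8) and another 1195 bp beyond the gene (54.5, 80.8 and 108). Their percentiles were 12.7, 39.01 and 46.9 at the edge and 6.03, 45.8 and 57.7 beyond the gene. Regions within 10 kb of Sting1 and Irf5 scored 60.4 and 51.3 in WT IL-4. The Sting1 region lay at the edge of its neighbour 1700066B19Rik.

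Of the 32 macrophage identity genes 2 had an edge region and 3 a locus region. The 2 were among 10 list genes with an edge region in the other 3 libraries, beside 11.3% over all such genes. The edge count was 1 at equal list lengths and 0 with scores of 100 or more required. Maf, a transcription factor of resident macrophages, scored 93.9 in WT untreated, 89.3 in WT IL-4 and 126 in KO untreated. Lyz2, the lysozyme gene, scored 85.8, 57.6 and 73.5, at the promoter shown above. Csf1r, the receptor of M-CSF, had an internal region of 69.9, 57.9 and 64.4. For comparison, 7 genes of the list had a locus region missing only from WT IL-4. The rest of the list, with the lineage factor genes Spi1 and Cebpa, had none missing only from KO IL-4.

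Arginine and polyamine genes had 3 of 17 with an edge region (17.6%, beside 2.91% over all genes), all at gene starts. They were 3 of the 9 with an edge region in the other 3 libraries, beside 11.3% over all such genes. The count was 0 with scores of 100 or more required and 2 at equal list lengths. Sat1, which encodes the acetyltransferase of polyamine breakdown, scored 161 in WT untreated, 96.4 in WT IL-4 and 164 in KO untreated. Amd1, of polyamine synthesis, scored 91.8, 87.4 and 121, and Slc7a1, a transporter of arginine, 73.4, 62.8 and 76.5. Sat1 ranked 59 of 1235, with percentiles of 58.6 or more in all 3 lists. In the creatine list 1 of 8 genes had a locus region (12.5%, beside 6.57% over all genes), near Gamt of creatine synthesis. It lay 8542 bp from Gamt and at the start of Ndufs7, and scored 115, 63.1 and 139.

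Oxidative phosphorylation genes had 4 of 34 at the edge (11.8%, beside 2.91% over all genes) and 5 at the locus. They were 4 of the 20 with an edge region in the other 3 libraries, beside 11.3% over all such genes, and the edge count was 2 at equal list lengths. Besides Cox8a these were Ndufb3 and Ndufs7, of complex I, and Sdhc, of complex II, with Atp5d, of the ATP synthase, at the locus. Ndufb3 scored 74.0 in WT untreated, 107 in WT IL-4 and 138.5 in KO untreated, and its region also held the start of Fam126b on the other strand. Sdhc scored 67.8, 54.9 and 89.7. Regions missing only from WT IL-4 were at the edge of 4 genes of the same list. Ribosomal protein genes had 3 of 31 at the edge, Rpl3, Rpsa and Rps3, and 5 in the mirrored class. The 3 were among 15 list genes with an edge region in the other 3 libraries, beside 11.3% over all such genes. Rpsa scored 256 in WT untreated, 63.9 in WT IL-4 and 96.1 in KO untreated, and Rps3 scored 66.9, 51.8 and 207. In percentiles these peaks were at 88.4, 25.8 and 51.2 for Rpsa and at 23.0, 4.10 and 85.8 for Rps3, so each was high in a different untreated list.

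Lipid genes had 2 of 29 at the edge, beside 2.91% over all genes, and the same share applies to the lists that follow here. Nr1h2, which encodes the oxysterol receptor LXR beta, had its region 365 bp from the gene end and at the start of Pold1 (159 in WT untreated, 119 in WT IL-4 and 122 in KO untreated). Cpt1a, of mitochondrial fatty acid import, scored 70.01, 52.2 and 59.7, with a KO IL-4 peak 93 bp away. Inside Plin2, a lipid droplet gene, the region scored 103, 50.1 and 141, and inside Soat1, of cholesterol esterification, 104, 62.5 and 114. Lysosome and autophagy genes had 2 of 35, Ctsd (cathepsin D; 182, 80.4 and 112) and Atp6v1a (a proton pump subunit; 79.9, 55.9 and 60.7). Cell cycle genes had 2 of 28, Cdkn1b (an inhibitor of cyclin-dependent kinases; 134, 99.9 and 81.9) and Rrm2 (ribonucleotide reductase; 129, 65.6 and 82.6). Housekeeping genes had 2 of 26, Tbp (the TATA-binding protein, with 183, 102 and 122) and Rpl13a (146, 56.7 and 75.7). Genes with an edge region in the other 3 libraries numbered 12 lipid, 14 lysosome, 18 cell cycle and 15 housekeeping genes. Over all such genes 11.3% (10.5 to 12.2) had one that was missing from KO IL-4. Regions missing only from WT IL-4 were at the edge of 2, 4, 2 and 3 genes of these lists, in that order.

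Edge regions were found at 1 of 25 splicing factor genes, Ddx39b, and at none of the 28 chromatin remodeler, 31 histone enzyme, 15 MHC class II, 28 pattern recognition receptor, 19 AP-1 and immediate early, 26 glycolysis, 26 actin and adhesion or 18 chemokine genes. Of the remodeler genes 15 had an edge region in the other 3 libraries, and so did 15 of the histone enzyme genes, and each of these was also found in KO IL-4, beside 11.3% missing over all such genes. Genes with an edge region in the other 3 libraries numbered 19 for splicing factors, 12 for glycolysis and 8 each for the AP-1 and actin lists. They numbered 4 for pattern recognition and 3 each for MHC class II and chemokines, too few for a count of 0 to say much. These counts of 0 depended on the setting. With scores of 100 or more required there were 3 remodeler genes, 1 histone enzyme, 1 AP-1 and 1 glycolysis gene, and 1 remodeler gene with reciprocal overlap. At the locus, the AP-1 list had Dusp1 (135, 79.6 and 117 in WT untreated, WT IL-4 and KO untreated) and Fosb, with an internal region (134, 50.4 and 81.7) and another 6059 bp away (82.2, 107 and 67.8). The pattern recognition list had Tlr9, Nod2 and Irak4, and the remodeler list Arid2. The Tlr9 region was nearer to Alas1 (2756 bp) than to Tlr9 (2906 bp). The Arid2 region lay inside Gm38469, 1445 bp from Arid2, with a KO IL-4 peak 224 bp away. The remaining locus regions were near Pfkl and Ldha of glycolysis, in Itgav of adhesion, and near the chemokine receptor gene Ccrl2. The Pfkl region lay 8027 bp from Pfkl and at the start of Cfap410.

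Few genes carried several of these regions. At the locus, 70 genes had 2 or more and 6 had 3. Cyth4, an activator of Arf GTPases in blood cells, had 1 inside (151 in WT untreated, 123 in WT IL-4 and 67.03 in KO untreated) and 2 beyond its span, at 4638 and 7651 bp. Cdk19, a kinase of the Mediator complex, had 3 inside, with WT untreated scores of 129, 115 and 89.6 and WT IL-4 scores of 51.02, 56.4 and 72.2. Ahnak, a giant scaffold protein gene, had 2 inside and 1 beyond its span. The other 3 genes, Ifnz, Gm13276 and Gm13277, are neighbours on chromosome 4 that share the same 3 regions, between 88779394 and 88791785. Their lowest percentiles were 19.3, 32.7 and 17.97, and the nearest KO IL-4 peaks lay 2168 to 4854 bp away. Among miRNA hairpins, Mir1956 overlapped a region, at rank 1160.

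Markers of macrophages and of other cell types both had locus peaks. Of 32 macrophage identity genes, 31 had a locus peak in the WT untreated and 27 in the KO untreated library, and 26 and 23 in the IL-4 libraries of WT and KO. In WT untreated, WT IL-4, KO untreated and KO IL-4, neutrophil genes numbered 5, 2, 4 and 3 of 15, T cell genes 7, 6, 7 and 5 of 15, and B cell genes 8, 6, 6 and 5 of 13. Fibroblast genes with a locus peak numbered 2, 0, 0 and 0 of 12 in the same order, erythroid and mast cell genes at 2 of 13 in each library, and dendritic cell genes at 8, 4, 7 and 6 of 11. Regions missing only from KO IL-4 lay near Mmp8 (168, 134 and 87.7) of the neutrophil list, Cd2 of the T cell list and Tcf4 of the dendritic list. The part of other cells in these regions was not tested.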

How the data were processed

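The 4 peak lists, 1 per library, were used as the authors deposited them, with a position and a score per peak. The submitters' processing notes list the aligner Bowtie2 2.2.5, the peak caller MACS 1.4.2, HOMER and the build mm10, with no parameters. No source used here gives the scale of the score, and it was compared only within a list, as a percentile rank with ties averaged. A region with several peaks of a library took the highest. Coordinates are 1-based. The members and the 29 gene lists were chosen with earlier results of these data known. Of 683 list entries 680 matched a protein-coding symbol of the GRCm38.p6 table. Mx2, Rigi and Ighm did not match. Gene spans carry no strand there, and starts with strand came from the promoter table.

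Genes named are 6 fixed ones, those at the 25 highest-ranked regions, up to 4 per list by rank, and those with 3 or more regions. A region among the 25 is not reported by name here. Alternatives were equal list lengths, a minimum score of 100, reciprocal overlap (50%), no KO IL-4 peak within 500 bp, autosomes only, exactly 1 peak per library, edges of 2.5 kb and loci of 50 kb. Intervals came from SciPy 1.17.1, tables from pandas 2.3.3 and NumPy 2.4.6, and plots from Matplotlib 3.10.9, under Python 3.11.15. On simulated data made from shifted copies of the 17339 WT untreated peaks, 980 of 1000 planted regions were found. No false region could arise, since only planted peaks were taken from the simulated KO IL-4 list. The simulation checked the merging and did not model peaks that fall under the authors' limit. The motif search found 18 of 18 planted motifs.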

Additional observations from a re-analysis of the deposited data

How the results depend on the processing

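The number of regions, 1235, lay between 1187 and 1213 with a reciprocal overlap of 50%, no KO IL-4 peak within 500 bp, autosomes only and exactly 1 peak per library. It was 587 with a score of 100 or more in all lists, 681 at equal list lengths, and 59 with that score in the 3 libraries and no KO IL-4 peak at any score. In these 3 settings, in that order, the missing share was 17.3%, 10.6% and 1.74% for KO IL-4 and 23.0%, 10.9% and 2.69% for WT IL-4, the edge share 67.5%, 49.5% and 67.8%, and the median lowest percentile 66.8, 34.4 and 63.7. The first setting counts a KO IL-4 peak below 100 as absent. List genes with an edge region numbered 19 at equal list lengths and 3 in the last setting, and those with a locus region 32 and 3. Reciprocal overlap moved the WT IL-4 share to 19.3% and the median lowest percentile to 24.1. Edges of 2.5 kb gave an edge share of 49.3%, and loci of 50 kb 131 list genes. The KO IL-4 share was below the WT IL-4 share in every setting run, but the deposited KO IL-4 list was also the longer, 10443 peaks against 9930. At equal list lengths the intervals overlapped. They also overlapped with that score in the 3 libraries and no KO IL-4 peak at any score (1.33 to 2.24 for KO IL-4 and 2.19 to 3.27 for WT IL-4). Median promoter GC stayed between 61.7% and 62.7%. Of 97 named regions 27 remained members with a score of 100 or more and 56 at equal list lengths. The regions of Nfkbia, Rela and Atp5d and those just outside are not among the 97. No paired analysis was possible because each group has 1 library. Depth is unknown, so peaks near the limit cannot be told from missed ones.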
